A study of Mus musculus with 6 samples.

Results

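The genes described here take up dietary lipid into the enterocyte, the absorptive cell of the intestinal epithelium, and load it into chylomicrons, the lipoprotein particles that leave for the lymph. They are the 10 genes *Apoa1*, *Apoa4*, *Apob*, *Apoc3*, *Fabp1*, *Fabp2*, *Mttp*, *Cd36*, *Npc1l1* and *Dgat1*, picked by name and found by Ensembl identifier among the 34866 genes of the count table. Their RNA was measured by sequencing in intestinal adenomas of *Apc1322T*/+ and *ApcMin*/+ mice on the C57BL/6J background, aged between 100 and 120 days, with 3 libraries of each genotype. Both alleles are germline mutations that truncate Apc, the scaffold that sends β-catenin for degradation: *ApcMin* abolishes this function, whereas the longer product of *Apc1322T* retains a part of it. The study asked how alike the RNA profiles of the adenomas of these models are. Adenomas were excised one by one, and as a rule several RNA extractions of the same mouse went into a sample, so that a library holds adenomas of 1 animal. The labels number the replicates without naming an animal, so that the p-values below measure the spread between these libraries. Neither a normal intestine nor the position of the adenomas along the intestine was part of the data used here.

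Lipid absorption runs in a fixed order. Fatty acids and cholesterol cross the brush border with the help of membrane proteins such as CD36 and NPC1L1, travel through the cytoplasm on fatty acid binding proteins and are esterified in the endoplasmic reticulum. There the microsomal triglyceride transfer protein (*Mttp*) loads triglyceride onto apolipoprotein B, and the growing particle takes up further apolipoproteins before it is secreted. These genes are most active in mature villus cells of the duodenum and jejunum, and hepatocytes use many of them to make other lipoproteins.

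The libraries held between 23132461 and 33518324 estimated counts, and levels are given in CPM, the count scaled to the library total. The limit of detection, set at 3 counts, lay between 0.0895 and 0.130 CPM and covers counting error only. All 10 genes lay far above it and passed the filter on low counts. The adenomas expressed *Vil1*, a brush border gene, at a log2 CPM of between 9.24 and 10.64, so that the labelled tissue held intestinal epithelium. A pair of libraries stood apart by markers of other tissues, which were looked at more closely after their values were seen. *Apc1322T* replicate 2 held 239 counts of *Adipoq* and 66 of *Lep*, hormones of fat cells, where each other library held at most 1. *ApcMin* replicate 1 held 560 counts of the pancreatic lipase gene *Pnlip* and 2679 of the digestive protease gene *Ctrb1*, where the other libraries held at most 2 and 16. Results without each of these libraries are given below. In RNA from whole tissue, fewer cells of a type and less RNA per cell cannot be told apart.

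All 10 lipid genes had a lower fitted level in *ApcMin* than in *Apc1322T* adenomas, and none of the differences passed the test. The fitted fold was between 1.25 for *Apoc3* and 2.80 for *Cd36*, and 8 of the 10 genes were at least 1.5-fold lower, as were 5.35% of all genes tested. A lower level in *ApcMin* by itself was found for 47.6% of the 16536 genes tested. At the threshold of the study, an adjusted p under 0.01, edgeR's quasi-likelihood test called 0 of the 10 genes and 0% of all genes. The adjusted p of the lipid genes was between 0.288 and 0.775. At an unadjusted p under 0.05 there were 3 of them, *Fabp1*, *Mttp* and *Cd36*, and 7.6% of all genes were below this p and lower in *ApcMin*. Their number depended on single libraries: it was 5 without *Apc1322T* replicate 1, where 13.2% of all genes were below this p and lower in *ApcMin*, and 7 without *ApcMin* replicate 2, where 6.07% were. It was 0 without *Apc1322T* replicate 2 or 3 (2.99 and 3.86% of all genes) and 0 without *ApcMin* replicate 1 or 3 (4.97 and 4.67%). DESeq2, the tool named by the study, also called 0 of the 10 at 0.01 and called the same 3 genes at an adjusted p under 0.05, where 1.3% of the genes with an adjusted p were called and lower in *ApcMin*. Limma-voom called 0 of them at either threshold, and 0% of all genes as lower. The median log2 fold change (*ApcMin* over *Apc1322T*, so that a negative value is lower in *ApcMin*) was -0.84 for the lipid genes and 0.02 for all genes tested.

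The promoters of 4 of these genes are printed first, because the lipid genes share a profile over the libraries and classical transcription factors of the enterocyte are known to act on them. RefSeq's promoter table for GRCm38.p6, which covers 250 bases before and 50 after the start of each gene, holds 8 of the 10 genes, all but *Apoc3* and *Dgat1*. Letters in capitals are matches, on either strand, to 1 of the following motifs. AAAGNNCA holds the spacer and a half-site of the direct repeats that HNF4 and related nuclear receptors bind, TTTATG is the core bound by CDX factors, GTTAAT is a half-site of HNF1, AGATAA is a GATA site, and TATAAA is the TATA box.
Apoa4 promoter (chr9:46240594-46240893, plus strand): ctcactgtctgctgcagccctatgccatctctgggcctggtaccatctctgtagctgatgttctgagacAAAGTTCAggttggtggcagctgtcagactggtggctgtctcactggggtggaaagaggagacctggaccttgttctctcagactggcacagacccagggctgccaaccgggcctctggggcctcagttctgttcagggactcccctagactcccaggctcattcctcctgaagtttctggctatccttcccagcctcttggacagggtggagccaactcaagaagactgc
Apob promoter (chr12:7977427-7977726, plus strand): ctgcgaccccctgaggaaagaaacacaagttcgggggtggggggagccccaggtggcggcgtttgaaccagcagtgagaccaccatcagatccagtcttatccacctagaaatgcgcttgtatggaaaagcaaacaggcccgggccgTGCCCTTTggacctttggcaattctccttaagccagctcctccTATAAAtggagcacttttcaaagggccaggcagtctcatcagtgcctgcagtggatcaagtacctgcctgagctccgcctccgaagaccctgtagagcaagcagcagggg
Fabp1 promoter (chr6:71199629-71199928, plus strand): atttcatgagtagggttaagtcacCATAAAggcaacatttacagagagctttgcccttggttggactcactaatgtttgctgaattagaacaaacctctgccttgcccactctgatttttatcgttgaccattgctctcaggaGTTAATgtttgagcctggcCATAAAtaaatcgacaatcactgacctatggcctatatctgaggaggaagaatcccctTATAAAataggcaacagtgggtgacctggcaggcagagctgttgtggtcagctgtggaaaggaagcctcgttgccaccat
Cd36 promoter (chr5:17835847-17836146, minus strand): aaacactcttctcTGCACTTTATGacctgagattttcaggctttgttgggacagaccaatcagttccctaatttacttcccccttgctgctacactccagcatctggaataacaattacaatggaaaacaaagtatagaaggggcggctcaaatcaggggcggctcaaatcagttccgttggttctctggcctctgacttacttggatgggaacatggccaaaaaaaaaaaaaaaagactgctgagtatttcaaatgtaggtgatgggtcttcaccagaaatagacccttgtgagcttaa
In *Apoa4* the capitals are a match to AAAGNNCA at positions -181 to -174, counted from the start. *Apob* has such a match on the reverse strand and, closer to the start, a TATA box. *Fabp1* has CDX matches on the reverse strand at 2 places, with an HNF1 half-site between them and a TATA box whose first base is at -30. In *Cd36* a match to AAAGNNCA on the reverse strand overlaps a match to TTTATG. In all 4 genes printed, the start used by RefSeq lies inside the gene as GENCODE draws it. For *Apoa4*, *Apob* and *Fabp1* the window still covers GENCODE's start. For *Cd36* it does not: the gene, on the minus strand, begins at 17888801, and the window lies far inside it, up to 17836146. Which start of *Cd36* was used in these adenomas was not tested. The positions given here are counted from RefSeq's start. AAAGNNCA was found in 4 of the 8 promoters (*Fabp2*, *Cd36*, *Apoa4* and *Apob*) and in 19.6% of all 32851 promoters of the table. TTTATG was found in 2 of the 8 (*Cd36* and *Fabp1*) and in 11.9% of all, GTTAAT in 2 (*Fabp1* and *Npc1l1*) and in 7.1%, TATAAA in 2 (*Fabp1* and *Apob*) and in 13.6%, and AGATAA in 0 and in 11.2%. *Apoa1* and *Mttp* held none of these letters in the window.

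**Figure D1:**
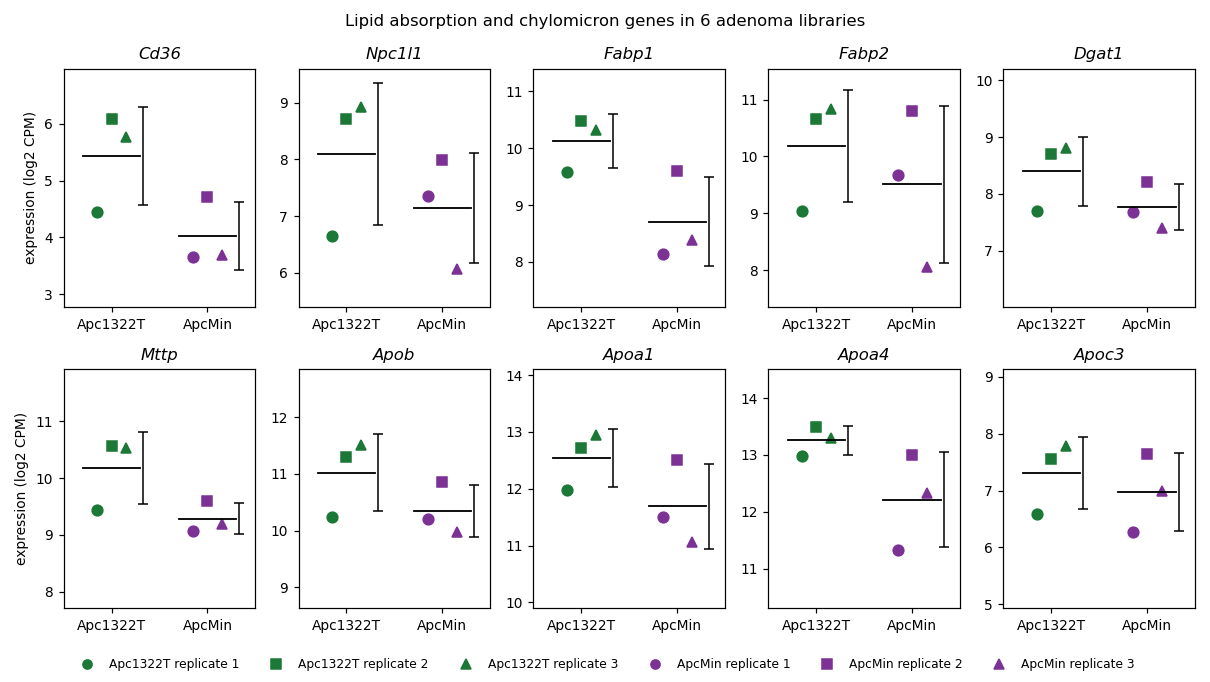
Expression of the 10 lipid genes (y axis, log2 CPM, the same span of values in each panel) in the 3 *Apc1322T* and 3 *ApcMin* adenoma libraries, with lines at the genotype means and bars of 1 SD (n = 3). *Apc1322T* replicate 1 is the lowest of its genotype in all 10 panels, and no panel shows genotypes that are fully apart.

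Uptake at the brush border was represented by *Cd36* and *Npc1l1*. *Cd36* (ENSMUSG00000002944, chromosome 5 of GRCm38, 17781690 to 17888801, minus strand) encodes a fatty acid translocase that is also made by fat cells, endothelium and macrophages. Its counts were 595, 1421 and 1245 in *Apc1322T* replicates 1, 2 and 3, and 451, 664 and 406 in *ApcMin* replicates 1, 2 and 3, which is a log2 CPM of 4.45, 6.08 and 5.77 against 3.66, 4.71 and 3.69. *Apc1322T* replicates 2 and 3 stood above all other libraries, and the genotypes overlapped through *Apc1322T* replicate 1 and *ApcMin* replicate 2. For *Cd36* the log2 fold change was -1.48 ± 0.49 (SE; 95% interval -2.67 to -0.30; adjusted p = 0.288 by edgeR), the most negative of the 10 genes. DESeq2 gave an adjusted p of 0.0254.

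Markers of the other cells that make CD36 did not all run the same way. The summed level of 8 fat cell genes was 91.2, 277 and 113 CPM in *Apc1322T* replicates 1, 2 and 3 and 72.6, 78.9 and 90.6 CPM in *ApcMin*, and its highest library was also that of *Cd36*. A single gene, *Cidec*, gave 66.7, 129 and 97.8 CPM of these sums in *Apc1322T* and 33.5, 57.2 and 68.8 CPM in *ApcMin*, whereas *Adipoq* and *Lep* were at 0 or 1 count outside *Apc1322T* replicate 2. *Plin1* and *Cfd* had at most 8 and 11 counts in the other 5 libraries. Without that library, *Apc1322T* replicate 2, the log2 fold change of *Cd36* was -1.15 (adjusted p = 0.693 by edgeR). The 7 endothelial genes were higher in *ApcMin* in 7 of 7 cases (93.2 to 142 against 136 to 190 CPM in sum), as were the 7 macrophage genes (133 to 148 against 149 to 463 CPM), which is opposite to *Cd36*. None of these genes was called by edgeR, and the part of fat cells in the level of *Cd36* was not tested.

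*Npc1l1* (ENSMUSG00000020447, chromosome 11, 6211013 to 6230143, minus strand) encodes the sterol transporter of the brush border and the target of ezetimibe. Its log2 CPM was 6.65, 8.71 and 8.92 in *Apc1322T* and 7.36, 7.98 and 6.08 in *ApcMin* replicates 1, 2 and 3. It varied more over the 6 libraries than any other of the 10 genes, by 2.84 on the log2 scale, and the range within *Apc1322T* alone was 2.27. The log2 fold change was -1.05 ± 0.69 (SE; 95% interval -2.72 to 0.61; adjusted p = 0.478 by edgeR). *Abcg5*, part of the transporter that pumps plant sterols back into the lumen, kept step with it: the log2 CPM of *Npc1l1* minus that of *Abcg5* lay between 1.38 and 1.84 in all 6 libraries. Among the 6 genes listed for sterol export and its control, 4 were lower and 2 higher in *ApcMin* and 0 were called by edgeR, from *Abcg5* at -0.92 to the sterol exporter *Abca1* at 0.44, with a median of -0.37.

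Inside the cell, fatty acids are carried by *Fabp1* and *Fabp2*. *Fabp1* (ENSMUSG00000054422, chromosome 6, 71199827 to 71205023, plus strand), the liver-type binding protein that the intestine also makes, had a log2 CPM of 9.58, 10.47 and 10.33 in *Apc1322T* and of 8.13, 9.60 and 8.39 in *ApcMin* replicates 1, 2 and 3. The genotypes overlapped narrowly, as *Apc1322T* replicate 1 was just short of *ApcMin* replicate 2. *Fabp1* had a log2 fold change of -1.32 ± 0.45 (SE; 95% interval -2.40 to -0.23; adjusted p = 0.298 by edgeR), and DESeq2 gave an adjusted p of 0.0277. Hepatocytes make large amounts of *Fabp1* too. Of 10 hepatocyte genes, 8 were tested and 7 of these were lower in *ApcMin* (median -0.37, 0 called by edgeR), with a summed level of 529 to 748 CPM in *Apc1322T* and of 416 to 479 CPM in *ApcMin*. *Alb* had 429 to 813 counts and *Trf*, the transferrin gene, 4089 to 13715, while the fibrinogen genes *Fgb* and *Fga* had 0 and 0 to 5. *Ahsg* and *Serpinc1* had 3 to 28 and 27 to 46 counts. Most of the summed level came from *Trf*, at 161 to 503 CPM, and *Cps1*, at 154 to 224 CPM. Among the 7 lower genes, *Alb* and *Cps1* each had a log2 fold change of -0.04. The part of hepatocyte RNA in the level of *Fabp1* was not tested.

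*Fabp2* (ENSMUSG00000023057, chromosome 3, 122895072 to 122899506, plus strand), the intestine's own binding protein, had a log2 CPM of 9.05, 10.65 and 10.84 in *Apc1322T* and of 9.68, 10.80 and 8.05 in *ApcMin* replicates 1, 2 and 3. *ApcMin* replicate 2 was as high as the highest *Apc1322T* libraries while *ApcMin* replicate 3 was the lowest of all. For *Fabp2* the log2 fold change was -0.47 ± 0.74 (SE; 95% interval -2.28 to 1.33; adjusted p = 0.775 by edgeR), the widest interval of the 10 genes, and it was -0.03 without *ApcMin* replicate 3 and -1.29 without *ApcMin* replicate 2.

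A further member of the family, *Fabp6*, carries bile acids in the ileum and is hardly used elsewhere along the intestine. It had 13, 13 and 14 counts in the *Apc1322T* libraries and 4560, 2105 and 31 counts in *ApcMin* replicates 1, 2 and 3. *ApcMin* replicates 1 and 2 thus held 127 and 82.8 CPM of it, and *ApcMin* replicate 3 was close to the *Apc1322T* libraries. The log2 fold change was 6.95 ± 1.72 (SE), with an adjusted p of 0.273 by edgeR and of 0.000248 by DESeq2. When *ApcMin* replicate 3, the low library of its genotype, was left out, edgeR's adjusted p was 0.00363. With any other library left out, edgeR's adjusted p was between 0.197 and 0.693. The ileal bile acid transporter *Slc10a2*, chosen after its values were seen, was high in the same libraries, with a log2 CPM of 6.04 and 6.29 against 2.01 to 3.11 elsewhere. Other genes listed for the ileum, also chosen after their values were seen, did not all set these libraries apart. *Mep1a* was highest there, at 6.64 and 6.93. *Slc51a* had 6.64 and 6.75 there against 6.54 and 6.83 in *Apc1322T* replicates 2 and 3, and *Clec2h* had 8.60 and 9.15 against 8.59 and 9.13. Per kilobase of exon, *Fabp1* made up 71.6, 60.7 and 55.0% of the sum of these binding proteins in *Apc1322T*, and 31.3, 41.0 and 68.7% in *ApcMin* replicates 1, 2 and 3. *Fabp2* was the larger of the pair only in *ApcMin* replicates 1 and 2, at 52.4 and 54.0%, where *Fabp6* had 16.4 and 5.05%.

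**Figure D2:**
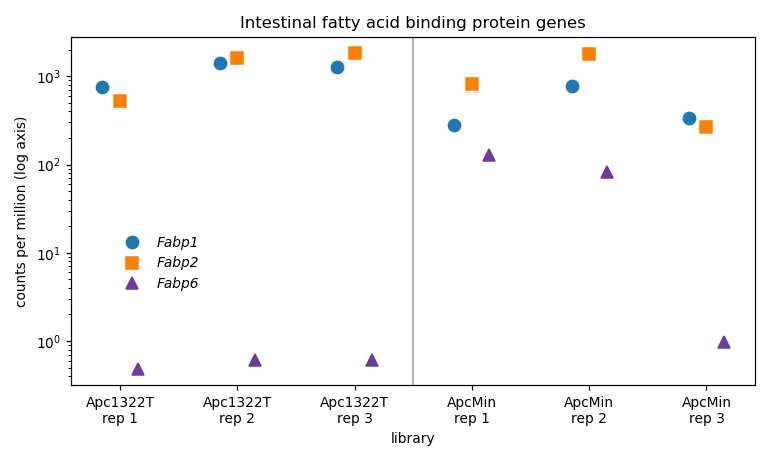
Level of the intestinal fatty acid binding protein genes *Fabp1*, *Fabp2* and *Fabp6* (y axis, CPM on a log axis) in each of the 6 adenoma libraries (x axis), with 1 point per gene and library. *Fabp6* is near 1 CPM or below in 4 libraries and at 127 and 82.8 CPM in *ApcMin* replicates 1 and 2.

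Of the 7 listed genes for uptake and activation of fatty acids and sterols, *Fabp6* among them, 3 were lower and 4 higher in *ApcMin*, with a median of 0.01. The lowest was *Slc27a4*, a fatty acid transporter with acyl-CoA synthetase activity, at -1.03 ± 0.50 (SE; adjusted p = 0.377 by edgeR).

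Esterification was represented by *Dgat1* (ENSMUSG00000022555, chromosome 15, 76502015 to 76511953, minus strand), which adds the last acyl chain of triglyceride. Its log2 CPM was 7.71, 8.70 and 8.81 in *Apc1322T* and 7.69, 8.22 and 7.41 in *ApcMin* replicates 1, 2 and 3. The first libraries of both genotypes were level, and *Apc1322T* replicates 2 and 3 lay above all the rest. Its log2 fold change was -0.67 ± 0.34 (SE; 95% interval -1.49 to 0.15; adjusted p = 0.386 by edgeR). Of 8 other genes that rebuild triglyceride and cholesteryl ester, 7 were lower and 1 higher in *ApcMin*, 0 were called, and the median was -0.45. They ran from *Gpat3*, a glycerol phosphate acyltransferase, at -0.89 to its relative *Gpat4* at 0.01.

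Particle assembly rests on *Mttp* and *Apob*. *Mttp* (ENSMUSG00000028158, chromosome 3, 138089854 to 138144968, minus strand) had a log2 CPM of 9.44, 10.56 and 10.53 in *Apc1322T* and of 9.06, 9.60 and 9.20 in *ApcMin* replicates 1, 2 and 3. The *ApcMin* libraries lay close together, within 0.54, and *Apc1322T* replicate 1 was closer to them than to its own group. Between the genotypes *Mttp* differed by a log2 fold change of -0.96 ± 0.32 (SE; 95% interval -1.73 to -0.19; adjusted p = 0.288 by edgeR), and DESeq2 gave an adjusted p of 0.0471. Without *Apc1322T* replicate 1 it was -1.24 ± 0.17 (SE; adjusted p = 0.0465 by edgeR), which made *Mttp* the only one of the 10 genes below 0.05 in any of the fits that leave out a library. In that fit 0.884% of all genes were below 0.05 and lower in *ApcMin*.

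*Apob* (ENSMUSG00000020609, chromosome 12, 7977648 to 8016835, plus strand) encodes the structural protein of the chylomicron. It had a log2 CPM of 10.24, 11.30 and 11.51 in *Apc1322T* and of 10.21, 10.85 and 9.97 in *ApcMin* replicates 1, 2 and 3. Here too *Apc1322T* replicates 2 and 3 were the highest of all, and *Apc1322T* replicate 1 was level with *ApcMin* replicate 1. *Apob* had a log2 fold change of -0.72 ± 0.38 (SE; 95% interval -1.63 to 0.19; adjusted p = 0.397 by edgeR). The log2 CPM of *Mttp* minus that of *Apob* stayed between -1.25 and -0.75 over the 6 libraries.

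The 11 listed genes for lipid droplets, for the lipidation of apolipoprotein B and for its exit from the endoplasmic reticulum were lower in *ApcMin* without exception, with 0 called by edgeR and a median of -0.48. They ran from *Tm6sf2*, which acts in the lipidation of lipoproteins, at -0.84 to the SNARE gene *Stx5a* at -0.10. In 5 of the 11, all *ApcMin* libraries lay below all *Apc1322T* libraries, as was the case for 9.96% of all genes tested and for 0 of the 10 lipid genes. The 5 were *P4hb*, *Cideb*, *Plin2*, *Plin3* and *Surf4*, named after their values were seen. *Surf4*, a cargo receptor for lipoproteins, had a log2 CPM of 8.99, 9.21 and 9.19 in *Apc1322T* and of 8.63, 8.67 and 8.66 in *ApcMin* replicates 1, 2 and 3. Its log2 fold change was -0.48 ± 0.10 (SE), and that of *P4hb*, which encodes the partner subunit of *Mttp* and is a protein disulfide isomerase of wider use, was -0.48 ± 0.11 (SE). Both had an adjusted p of 0.257 by edgeR, while DESeq2 called both, with 0.00131 and 0.00270, as it called 0.394% of all genes lower in *ApcMin*. These differences were smaller than that of *Mttp*, with tighter replicates.

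Of the apolipoproteins of the particle surface, *Apoa1* and *Apoa4* were the most abundant of the 10 genes and *Apoc3* was far below them. *Apoa1*, *Apoc3* and *Apoa4* lie side by side within 14.9 kb of chromosome 9, from 46228580 to 46243459. *Apoa1* (ENSMUSG00000032083, 46228580 to 46230466, plus strand), the main protein of high-density lipoprotein, had a log2 CPM of 11.97, 12.72 and 12.94 in *Apc1322T* and of 11.49, 12.51 and 11.06 in *ApcMin* replicates 1, 2 and 3. *Apoa4* (ENSMUSG00000032080, 46240696 to 46243459, plus strand), an apolipoprotein that the intestine makes in response to fat, had 12.98, 13.49 and 13.29 against 11.32, 12.99 and 12.33. *Apc1322T* libraries were the more even for *Apoa4*, within 0.51 of each other, while *ApcMin* replicate 1 was far below and *ApcMin* replicate 2 level with *Apc1322T* replicate 1. The log2 fold change was -0.78 ± 0.43 (SE; 95% interval -1.81 to 0.25; adjusted p = 0.413 by edgeR) for *Apoa1*. For *Apoa4* it was -0.90 ± 0.41 (SE; 95% interval -1.88 to 0.08; adjusted p = 0.354 by edgeR), and -0.57 without *ApcMin* replicate 1.

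*Apoc3* (ENSMUSG00000032081, 46232933 to 46235636, minus strand) encodes an inhibitor of lipoprotein lipase and lies between the other two. Its log2 CPM was 6.60, 7.56 and 7.79 in *Apc1322T* and 6.28, 7.65 and 6.99 in *ApcMin* replicates 1, 2 and 3. *ApcMin* replicate 2 was above *Apc1322T* replicate 2, and the groups overlapped more widely than for its neighbours. The log2 fold change was the smallest of the 10, -0.32 ± 0.43 (SE; 95% interval -1.36 to 0.72; adjusted p = 0.729 by edgeR), and it was -0.04 without *ApcMin* replicate 1. Neighbours in the cluster did not keep a fixed ratio: the log2 CPM of *Apoa1* minus that of *Apoa4* ran from -1.27 in *ApcMin* replicate 3 to 0.18 in *ApcMin* replicate 1. The log2 CPM of *Apoa1* minus that of *Apob*, on another chromosome, stayed between 1.09 and 1.73.

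Of 7 other apolipoprotein genes, 4 had enough counts to be tested, and *Apoa5*, *Apoc1* and *Apom* had only 1 to 13 counts in any library. *Apoc2*, the activator of lipoprotein lipase, was the lowest in *ApcMin*, at -1.22 ± 0.42 (SE; adjusted p = 0.305 by edgeR), and *Apoe*, which macrophages also make, was the highest, at 0.93 ± 0.39 (SE; adjusted p = 0.331 by edgeR). *Apoe* was at its highest in *ApcMin* replicate 1, which was also the highest library for the macrophage list. Over the 5 lists for uptake, esterification, assembly, other apolipoproteins and sterols, 28 of 36 tested genes were lower in *ApcMin* and 8 higher, with 0 called by edgeR. At an unadjusted p under 0.05 by edgeR, 6 of the 36 were lower and 2 higher. Over all genes tested, 47.6% were lower in *ApcMin*, and 7.6% were lower with an unadjusted p under 0.05.

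**Figure D3:**
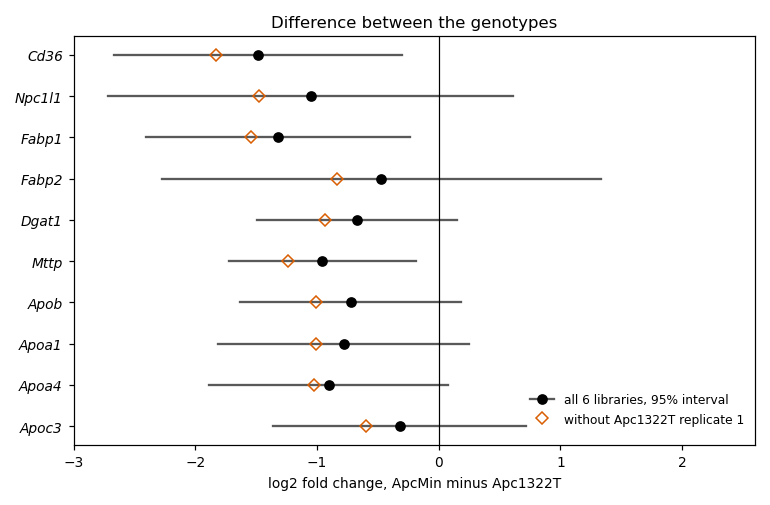
Fitted log2 fold change (x axis, *ApcMin* over *Apc1322T*) of the 10 lipid genes (y axis), with points and 95% intervals for all 6 libraries and open diamonds for the fit without *Apc1322T* replicate 1. All points lie below 0, from -1.48 to -0.32, and the intervals of *Cd36*, *Fabp1* and *Mttp* end below 0. Each diamond lies further from 0 than its point, as the library left out is the lowest of its genotype for all 10 genes. The median, -0.84 with all libraries, was -0.74 and -0.63 without *Apc1322T* replicate 2 or 3. It was -0.64, -1.30 and -0.62 without *ApcMin* replicate 1, 2 or 3.

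Levels of different genes were compared per kilobase of exon, as log2 CPM per kilobase averaged over the 6 libraries. *Apoa4* and *Apoa1* led with 11.87 and 11.81 and did not differ in order, as *Apoa4* was the higher in 3 of 6 libraries. *Fabp1* (10.27) and *Fabp2* (9.90) followed below *Apoa1* in 6 of 6 libraries, with *Fabp1* above *Fabp2* in 4. *Apoc3* (7.12) and *Mttp* (7.10) did not keep 1 order over the libraries, *Apoc3* being the higher in 2, and *Mttp* was above *Apob* (6.88) in 5. *Dgat1* (6.47), *Npc1l1* (5.46) and *Cd36* (2.88) kept this order, and their place below *Apob*, in 6 of 6. *Cd36*, with the most negative difference between the genotypes, was thus the least expressed of the 10. Together the 10 genes took 1.58, 2.41 and 2.46% of all counts in *Apc1322T* and 0.931, 2.09 and 1.04% in *ApcMin* replicates 1, 2 and 3, most of it from *Apoa1* and *Apoa4*.

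Libraries of the same genotype were as far apart as the genotypes were. After each gene was centred on its own mean, the 10 genes averaged -0.34, 0.82 and 0.86 on the log2 scale in *Apc1322T* and -0.72, 0.28 and -0.89 in *ApcMin* replicates 1, 2 and 3. *Apc1322T* replicate 1 was the lowest of its genotype for all 10 genes, and *ApcMin* replicate 2 was above the mean of the 6 libraries for 8 of them. In 8 genes, all but *Apoc3* and *Fabp2*, *Apc1322T* replicates 2 and 3 exceeded all *ApcMin* libraries. This count leaves out the lowest *Apc1322T* library, and its share over all genes was not computed. With all 6 libraries the genotypes were apart for 0 of the 10 genes, and for 9.96% of all genes tested with *ApcMin* lower. For all 10 the difference between the genotype means was smaller than the wider of the ranges within a genotype. The highest library was *Apc1322T* replicate 2 for 4 genes and *Apc1322T* replicate 3 for 6, and the lowest was *ApcMin* replicate 1 for 5 and *ApcMin* replicate 3 for 5.

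Enterocyte genes outside lipid absorption were, on average, also highest in *Apc1322T* replicates 2 and 3 and lowest in *ApcMin* replicate 3. Single genes did not all follow this order. A list of 15 of them, brush border enzymes and transporters of sugars and peptides such as *Sis*, *Lct* and *Slc5a1*, averaged a log2 CPM of 7.65, 9.26 and 9.52 in *Apc1322T* and of 8.11, 8.57 and 7.04 in *ApcMin* replicates 1, 2 and 3. Unlike the average of the lipid genes, theirs was higher in *ApcMin* replicate 1 than in *Apc1322T* replicate 1. All 15 were lower in *ApcMin*, with a median log2 fold change of -0.85 and 0 called by edgeR. When this average was subtracted in each library, a scaling chosen after the data were seen, the median difference of the 10 lipid genes between the genotypes was 0.03, with 4 genes lower and 6 higher in *ApcMin*. *Npc1l1* then varied by 0.45 over the 6 libraries in place of 2.84, with a difference of -0.05. The differences farthest from 0 were those of *Apoc3* (0.56), *Fabp1* (-0.51) and *Cd36* (-0.51), and each of the 10 genes overlapped between the genotypes. The range over the libraries became narrower for 9 of the 10 genes, all but *Apoc3*, yet only from 2.17 to 2.13 for *Apoa4*. The direction of the lipid genes thus depended on whether they were set against all genes or against the rest of the enterocyte programme.

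**Figure D4:**
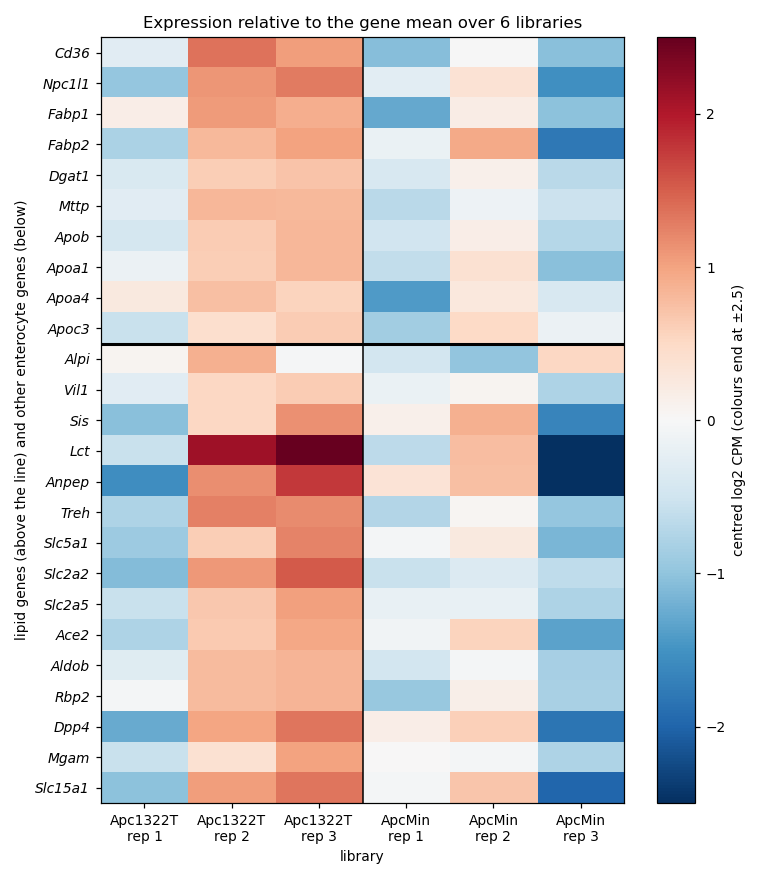
Centred log2 CPM (colour, expression minus the mean of the gene over 6 libraries, with colours ending at 2.5 in either direction) of the 10 lipid genes above the thick line and of the 15 other enterocyte genes below it, in 6 libraries (x axis). *Apc1322T* replicates 2 and 3 are high and *ApcMin* replicate 3 is low in most rows, and *ApcMin* replicate 1 is lowest for 5 lipid genes, *Apoa4*, *Fabp1*, *Apoc3*, *Mttp* and *Cd36*.

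Markers of other cells and of intestinal regions differed in direction. The 7 genes of villus tip enterocytes were lower in *ApcMin* in 6 cases (median -0.48), and the 8 genes of crypt base stem cells were split 4 to 4 (median 0.10). Of 8 genes of the proximal intestine 6 were lower in *ApcMin* (median -0.52), where 47.6% of all genes were lower. Of 8 genes of the ileum 5 were higher (median 0.10), *Fabp6* among them. The proximal sum was 3793, 5746 and 4273 CPM in *Apc1322T* and 2682, 2268 and 4989 CPM in *ApcMin* replicates 1, 2 and 3. For the ileum it was 270, 626 and 840 against 871, 1077 and 200 CPM. Some genes of both lists also stand in other lists. The 6 genes of smooth muscle and fibroblasts were higher in *ApcMin* in 6 of 6 cases, with a sum of 1264, 518 and 787 CPM in *Apc1322T* and of 2522, 935 and 1188 CPM in *ApcMin* replicates 1, 2 and 3. Within each genotype the stromal sum was lowest in replicate 2, and it was highest in *ApcMin* replicate 1, where 5 of the 10 lipid genes had their lowest level. The parts of regional origin and of stroma in the differences of the lipid genes were not tested.

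The genes closest to the mean centred profile of the 10, by root mean square distance over the 6 libraries, were *Soat2* (0.106), *Gm3550* (0.122), *Erich4* (0.131), *Efr3b* (0.134) and *Irf7* (0.139), against a median of 0.745 for all genes. *Soat2* encodes the enzyme that esterifies cholesterol in enterocytes, and its log2 CPM was 5.06, 6.28 and 6.39 in *Apc1322T* and 4.94, 5.64 and 4.71 in *ApcMin* replicates 1, 2 and 3. *Irf7* encodes a regulator of interferon genes. *Gm3550* was at a low level, with a log2 CPM between -2.23 and -0.44, where counting error weighs more on the profile. Of the 10 genes themselves, which also enter the mean, *Apoa1* (0.149) and *Apob* (0.160) were the closest and *Fabp2* (0.549) was the farthest.

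Transcription factors known to act on lipid genes were mostly lower in *ApcMin* as well. Of 10 listed, 9 were lower and 1 higher, with 0 called by edgeR and a median of -0.40. The extremes were the nuclear receptor *Hnf4g* at -0.74 ± 0.54 (SE; adjusted p = 0.523 by edgeR) and the bile acid receptor *Nr1h4* at 0.15 ± 0.13 (SE; adjusted p = 0.590 by edgeR). *Cdx2*, the homeobox factor of intestinal identity whose core motif stands in the *Fabp1* and *Cd36* promoters above, was chosen after its values were seen. It had a log2 CPM of 6.90, 7.20 and 7.24 in *Apc1322T* and of 6.77, 6.84 and 6.19 in *ApcMin* replicates 1, 2 and 3, with no overlap between the genotypes. Its log2 fold change was -0.49 ± 0.19 (SE; adjusted p = 0.312 by edgeR).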

How the data were processed

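RNA-seq libraries of adenomas from 3 *Apc1322T*/+ and 3 *ApcMin*/+ mice were analysed, with genotype and replicate number taken from the labels. Libraries were made with a strand-specific kit from 1 μg of total RNA and sequenced from 1 end for 50 bases. The authors quantified the reads with Salmon against GRCm38 and deposited estimated counts per gene, neither normalised nor scaled by gene length. Salmon divides reads that fit several transcripts by estimated abundance.

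The estimated counts were rounded, and 34582 of 34866 genes matched a GENCODE M21 symbol. Genes were kept by filterByExpr (minimum count 10, minimum total count 15), normalised by TMM and compared in edgeR 4.0.16 (R 4.3.3) by the quasi-likelihood test with robust estimation, with Benjamini-Hochberg adjustment over 16536 genes and a threshold of 0.01. SEs were derived from the F statistics. Log2 CPM used a prior count of 2. DESeq2 1.42.0 and limma 3.58.1 were alternatives, with other normalizations, filters, prior counts, libraries left out and a replicate block. The scripts were tested on simulated data. Chi-square per gene between libraries was at least 23.3, so that none was a copy of another. An exact permutation test of 3 libraries against 3 allows no p under 0.10, and none was run.

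The genes described, the lists and the tests were chosen with earlier results of these data known. Named were the 10 genes, the largest and smallest fold change in each pathway list, and the 5 genes nearest to the mean profile. The cell markers *Vil1*, *Alb*, *Trf*, *Cps1*, *Ahsg*, *Serpinc1*, *Fga*, *Fgb*, *Cidec*, *Plin1* and *Cfd* and the examples of the enterocyte list are named in addition. So are the genes said to be chosen after their values were seen.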

Additional observations from a re-analysis of the deposited data

How the results depend on the processing

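The number of genes called between the genotypes was 0 and became 194 with DESeq2's Wald test, 1 without a filter on low counts, 1 at an adjusted p under 0.05, and 0 to 1 when a library was left out. None of the 10 lipid genes was called in any of these settings at an adjusted p under 0.01, and their median log2 fold change lay between -0.87 and -0.78 with all libraries and between -1.30 and -0.62 with a library left out. Of 90 single-gene values with all libraries 84 were below 0, and of 60 with a library left out all 60 were. The 6 others came from the scaling to the 15 enterocyte genes, added after the data were seen, where the median was 0.031 and the values were 0.048 for *Apoa1*, 0.23 for *Apob*, 0.56 for *Apoc3*, 0.23 for *Fabp2*, 0.013 for *Mttp* and 0.27 for *Dgat1*. This scaling subtracts an average that was itself lower by 0.91 in *ApcMin*. The median of all genes was at most 0.07 under another normalization. Replicate numbers did not pair the libraries, as deviations of same-numbered libraries correlated at -0.01, 0.16 and -0.29, and with the number as a replicate block 0 genes were called and the median was -0.87. All 120 log2 CPM values under another prior count or normalization moved by less than 1 SD. Counting error is small at these depths, and with 3 libraries per genotype the spread between libraries limits what can be shown.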

Other observations

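Lumenal fat is split by pancreatic enzymes before the enterocyte takes it up, and a list of 10 acinar genes was read for this reason. In *ApcMin* replicate 1, *Prss2*, *Cpa1*, *Cpb1*, *Pnlip*, *Cel*, *Cela3b* and *Amy2b* had between 286 and 813 counts each, where the other libraries had at most 6. Colipase (*Clps*) and the lipase relative *Pnliprp1* behaved differently and were present in all 6 libraries, at 471 to 1182 and at 504 to 2637 counts. The genes of this paragraph were chosen after their values were seen. Without *ApcMin* replicate 1 the median log2 fold change of the 10 lipid genes was -0.64, and without *Apc1322T* replicate 2, the library with fat cell hormones, it was -0.74. In that library the fat cell protease gene *Cfd* had 762 counts and *Plin1*, which coats lipid droplets of fat cells, 177, against at most 11 and 8 elsewhere. *Lpl*, lipoprotein lipase, had 748 counts there and 652 in *ApcMin* replicate 1, against 104 to 149 in the others.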
